A study of Mus musculus with 7 samples.

Results

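Granins and related proteins build the dense core vesicle, the organelle from which neurons and endocrine cells release peptides. The 10 genes described here are Chga, Chgb, Scg2, Scg3 and Vgf of the granin family, Cadps and Cadps2, which act before vesicle fusion, and Ptprn, Ptprn2 and Resp18, whose products belong to the vesicle itself. They were taken as the rows of the deposited expression table whose gene name equals one of these symbols, and all 10 were found among 18331 symbols. The study compared Pomc and Npy neurons, which make peptides with opposite effects on feeding. Neurons were dissociated from dissected arcuate nuclei of E15.5 mouse embryos (day of embryonic development) and sorted by fluorescence. Each library started from 1 ng of total RNA and was made with a stranded total RNA kit. There were 4 Pomc and 2 usable Npy libraries. The column of Npy replicate 3 is computed from Npy replicates 1 and 2 and was set aside. The labels used here name no strain, no reporter behind the sort and no animals or litters behind a library. The p-values therefore measure only the spread between libraries, which may be technical.

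As background, granins are acidic proteins that gather with peptide precursors in the late Golgi, where they help to form the dense core. Many are themselves cut by prohormone convertases into peptides that are released together with the main peptide. Filled vesicles travel along the axon and wait for calcium, and CAPS proteins prepare them for fusion. In the adult arcuate nucleus this pathway carries the melanocortin peptides made from Pomc, as well as neuropeptide Y and the agouti-related peptide.

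Expression is given in TPM, a measure of transcript abundance in which reads are divided by gene length and scaled to a fixed total per library, so levels of different genes can be set side by side. The deposited table states no unit and TPM was inferred, so comparisons between different genes rest on that reading. The table keeps no read depth, and the depth behind a value is therefore unknown. Differences are log2 fold changes on log2(TPM + 1), Pomc minus Npy, fitted with limma over 13845 genes and called at a Benjamini-Hochberg adjusted p under 0.05. In these bulk libraries, fewer cells of a type and less RNA per cell cannot be told apart. Values given for Pomc or Npy neurons are those of the sorted libraries.

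The libraries differed in more than their sort label. Each Pomc library had 12493 to 14656 genes above 0, and the Npy libraries had 14933 and 12922. Pomc stood at 352 to 770.3 TPM in Pomc neurons and at 24.0 and 59.4 TPM in Npy neurons, while Npy stood at 2.11 to 152 TPM in Pomc neurons and at 728 and 513 TPM in Npy neurons. The 17 pan-neuronal genes (0 of 17 passed) had a median log2 fold change of 0.36. Their summed TPM was 6974 to 8813 in Pomc libraries and 6577 and 5330 in Npy libraries, without overlap. Their mean log2(TPM + 1) overlapped, at 7.57 to 7.97 in Pomc and 7.76 and 7.27 in Npy libraries. The difference was positive in 11 of these genes and negative in 6. At an unadjusted limma p under 0.05 the fit held 5 of the 17, compared with 7.36% of all genes tested. They were Tubb3, Elavl3, Elavl4, Stmn2 and Ina, each with a positive difference. Oligodendrocyte lineage genes were nearly missing from the Pomc libraries, with a sum of 0.444 to 2.64 TPM over 6 genes. Olig2 and Cspg4 were at 0 in all Pomc libraries, and the sums over the 6 genes in Npy libraries were 228 and 207 TPM. All 6 of these genes were lower in Pomc libraries (limma). Radial glial and astrocyte genes (0 of 8 tested passed, median log2 fold change -0.59) had a mean log2(TPM + 1) of 2.50 to 3.32 in Pomc libraries, below the 3.78 and 3.39 of the Npy libraries. Their sums, 333 to 724 TPM in Pomc and 656 and 459 TPM in Npy, overlapped, and Vim alone held 200.9 to 529.6 TPM of them in Pomc and 206 and 155 TPM in Npy libraries (log2 fold change 0.75). Fabp7 stood at 1.61 to 61.6 TPM in Pomc and at 323 and 176 TPM in Npy libraries, and Nes and Hes5 were likewise separated with Npy higher. Glul was separated the other way, at 68.2 to 86.5 TPM in Pomc and 51.9 and 54.3 TPM in Npy libraries (log2 fold change 0.50). Genes of dividing cells (0 of 10 passed, 8 with a negative difference, median -1.19) had a mean log2 level of 1.37 to 2.63 in Pomc and of 3.57 and 2.73 in Npy libraries, also without overlap. Their sums were 44.1 to 113 TPM in Pomc and 156 and 81.1 TPM in Npy libraries, with Pcna the largest single value in every Pomc library, and Ccnb1 and Top2a were separated with Npy higher (log2 fold changes -2.81 and -1.99). Of 8 pituitary genes in the table, 7 were at 0 in every library, and their sum was 0 to 9.30 TPM in Pomc and 1.76 and 2.76 TPM in Npy libraries. Markers of blood, vessel, connective tissue and immune cells (0 of 6 tested passed) summed to 9.22 to 94.4 TPM in Pomc and 5.06 and 8.12 TPM in Npy libraries. The part of these other cells in the values below was not tested.

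Libraries of both neuron types held transcripts of the dense core vesicle genes, at total levels that overlapped. The 10 genes summed to 1895, 1341, 1550 and 1960.4 TPM in Pomc replicates 1 to 4, against 1805 and 1402 TPM in Npy replicates 1 and 2, and both Npy sums lay within the Pomc range. The 5 granins made up most of this, with 1400.3, 874, 1116 and 1541 TPM in Pomc neurons and 1273 and 911 TPM in Npy neurons. None of the 10 genes passed the threshold (limma adjusted p = 0.332 to 0.976), against 57 of the 13845 genes tested (0.412%), of which 40 were higher in Pomc (0.289%). At an unadjusted p under 0.05 the fit held 3 members, Cadps2 with a positive difference and Scg2 and Resp18 with negative ones, and 1019 of all genes (7.36%). The Pomc and Npy libraries did not overlap in 4 members, Cadps and Cadps2 higher in Pomc, Resp18 and Vgf higher in Npy, compared with 2202 of all tested genes (15.9%). With 15 arrangements of 4 and 2 libraries, the smallest exact permutation p is 0.0667, and no single gene could reach 0.05 by it.

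The members pointed in different directions. Their log2 fold changes were positive in 6 genes and negative in 4, with a median of 0.21 against 0.02 over all genes tested. The sign of the members' median turned without Npy replicate 2 (-0.08, with -0.08 over all genes) and when libraries were scaled to equal mean pan-neuronal level (-0.04, against -0.24 over all genes), a scaling chosen after seeing the data. The median standard error of the members was 0.28, compared with 0.45 over all genes. The precision is set by only 2 Npy libraries, and the 95% intervals of all members except Scg2, Cadps2 and Resp18 included 0.

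**Figure D1:**
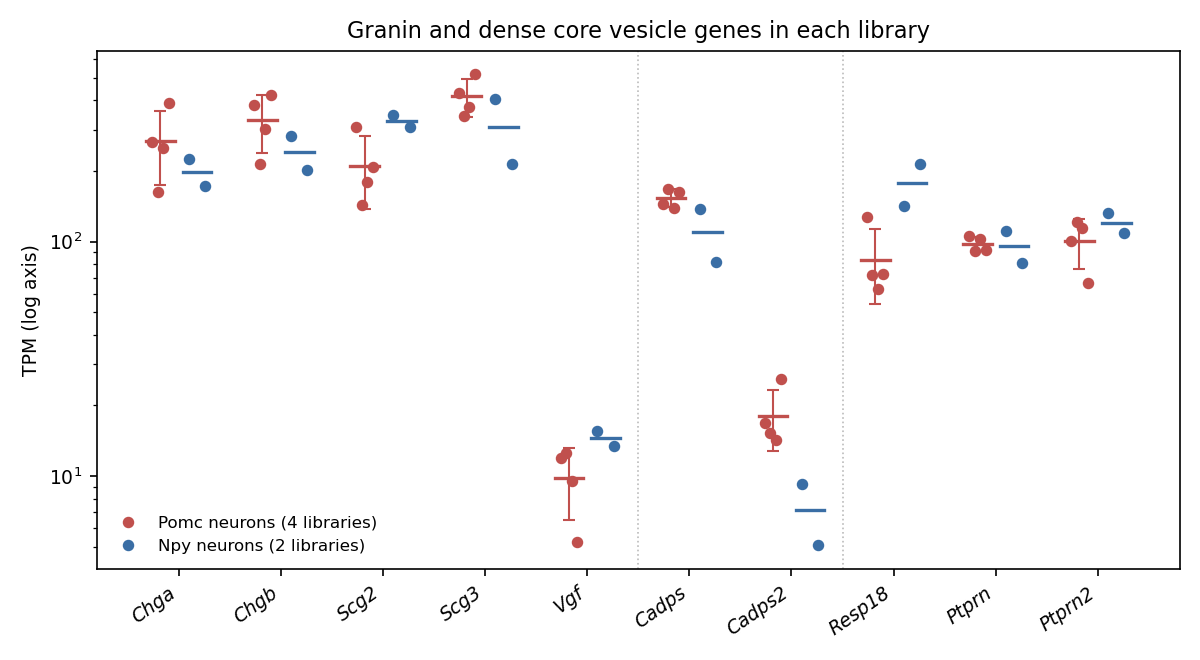
TPM on a log axis of the 10 genes in each library, with Pomc libraries (red, n = 4) left of Npy libraries (blue, n = 2). Points are libraries, horizontal lines are means and error bars are the SD of the Pomc libraries; Scg3, Chgb, Chga and Scg2 are the highest genes in both groups, and Vgf and Cadps2 the lowest.

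Among the granins, 4 genes were abundant in every library and Vgf was low. Chga (chromosome 12, 102554969 to 102565028, plus strand, GRCm38) encodes chromogranin A, which aggregates in the late Golgi and is cut into peptides. It stood at 266, 163, 250.4 and 389.9 TPM in Pomc replicates 1 to 4, against 225 and 172 TPM in Npy replicates 1 and 2. Both Npy values lay within the Pomc range, and the log2 fold change was 0.37 ± 0.31 (SE, 95% interval -0.32 to 1.06, limma adjusted p = 0.849, exact permutation p = 0.4). It was 0.17 without Pomc replicate 4, 0.18 without Npy replicate 2, 0.59 without Pomc replicate 2, 0.57 without Npy replicate 1 and 0.12 with the pan-neuronal scaling. Chgb (chromosome 2, 132781278 to 132795079, plus strand) encodes chromogranin B, the related core protein. Its values were 383, 214, 303 and 420.2 TPM in Pomc neurons and 282 and 202 TPM in Npy neurons. They overlapped as well (log2 fold change 0.42 ± 0.28, interval -0.21 to 1.05, adjusted p = 0.812), with a difference of 0.66 without Npy replicate 1, 0.18 without Npy replicate 2 and 0.17 with the pan-neuronal scaling. Chga and Chgb were each highest in Pomc replicate 4 and lowest among the Pomc libraries in replicate 2.

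Scg2 and Scg3 had differences of opposite sign. Scg2 (chromosome 1, 79434669 to 79440120, minus strand) encodes secretogranin II, the precursor of the peptide secretoneurin. It reached 309.3, 143, 179 and 209 TPM in Pomc neurons, against 347 and 309.1 TPM in Npy neurons. The groups overlapped only because Pomc replicate 1 lay just above Npy replicate 2; the other 3 Pomc libraries were lower than both Npy libraries. The log2 fold change was -0.70 ± 0.28 (interval -1.33 to -0.07). The unadjusted limma p was 0.0336, the adjusted p 0.611 and the exact permutation p 0.2. The Scg2 difference was -0.90 without Pomc replicate 1 and -0.53 without Pomc replicate 2. Scg3 (chromosome 9, 75643189 to 75684056, minus strand) encodes secretogranin III, which binds chromogranin A and tethers the core to the cholesterol-rich vesicle membrane. It was the most abundant of the 10 genes in Pomc neurons, with 429.8, 342, 374 and 517 TPM, and stood at 404 and 215 TPM in Npy neurons. The Npy libraries differed from each other by 1.88-fold and enclosed the lowest 2 Pomc values, and the log2 fold change was 0.48 ± 0.27 (interval -0.13 to 1.09, adjusted p = 0.786). It was 0.93 without Npy replicate 1 and 0.0248 without Npy replicate 2, and 0.23 with the pan-neuronal scaling.

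Vgf (chromosome 5, 137026392 to 137033351, plus strand), which encodes a neuropeptide precursor induced by neurotrophins and needed for normal energy balance in mice, was far below the other granins. It stood at 12.0, 12.6, 9.56 and 5.25 TPM in Pomc neurons and at 15.53 and 13.4 TPM in Npy neurons. Each Pomc value was lower than both Npy values, and the log2 fold change of -0.57 ± 0.53 had a wide interval of -1.77 to 0.62 (limma adjusted p = 0.858, exact permutation p = 0.2). It was -0.33 without Pomc replicate 4. In rank, Vgf lay near the middle of the table, at percentiles 43.2 to 53.5 of all symbols, whereas Scg3 lay at 95.9 to 98.9 over the 6 libraries.

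The granins were mixed in different proportions in the libraries. As a share of the summed TPM of the 5 genes, Scg2 made up 22.1, 16.3, 16.02 and 13.6% in Pomc replicates 1 to 4, against 27.2 and 33.9% in Npy replicates 1 and 2. No Pomc library reached the share of either Npy library. Chgb made up 24.4 to 27.4% in Pomc neurons and 22.1 and 22.2% in Npy neurons, also without overlap, while the shares of Scg3 (30.7 to 39.1% in Pomc, 31.7 and 23.5% in Npy) and Chga (18.7 to 25.3% in Pomc, 17.7 and 18.9% in Npy) overlapped. Set against Chga in the same library, Scg2 stood at 1.16, 0.873, 0.714 and 0.536 times its level in Pomc neurons and at 1.54 and 1.80 times in Npy neurons. Shares of 1 sum depend on each other, and these shares and this ratio were looked at after the values were known, so they are a description with no test. In Pomc neurons the order of mean levels was Scg3, Chgb, Chga and Scg2, and in Npy neurons Scg2, Scg3, Chgb and Chga. The ranges of neighbours overlapped throughout both orders, although Scg3 exceeded Chgb, and Chgb exceeded Chga, in all 6 libraries.

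**Figure D2:**
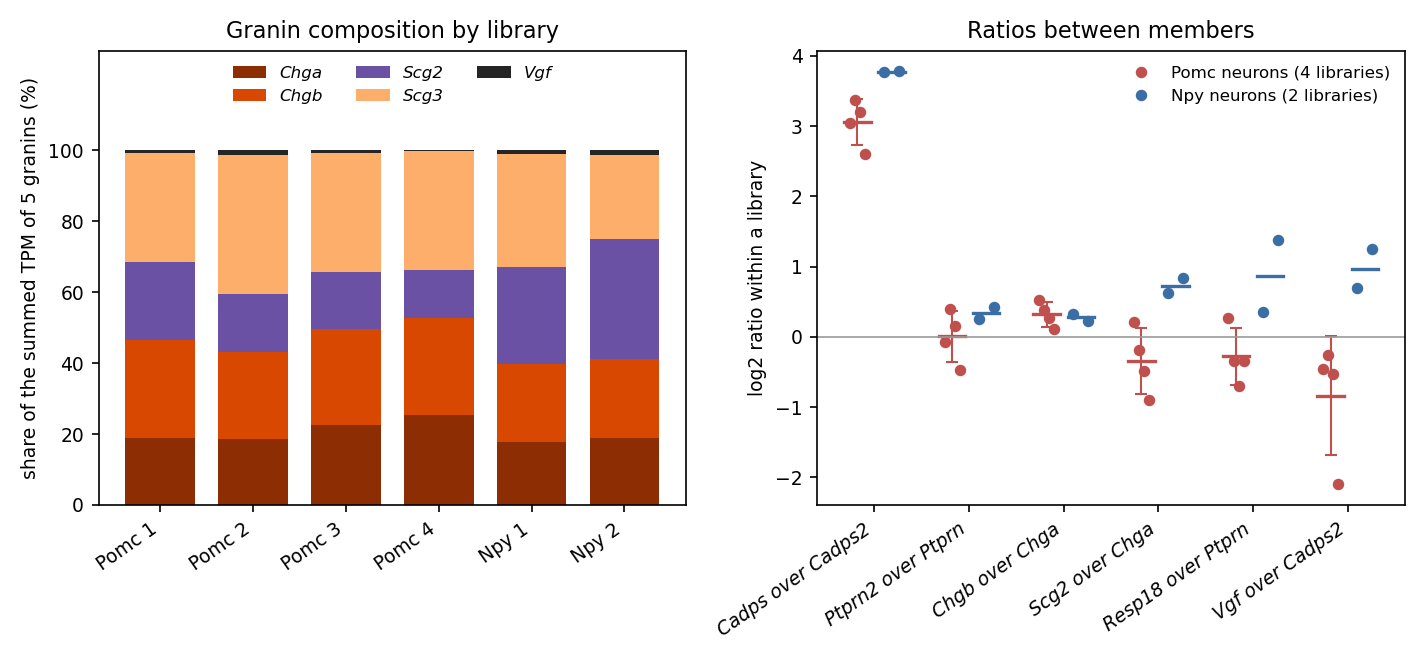
Left, each granin's share (%) of the summed TPM of the 5 granins in each library, and right, log2 ratios between 2 members within a library, with Pomc (red) left of Npy (blue), means as lines and the SD of the 4 Pomc libraries as bars. The Scg2 share is 13.6 to 22.1% in Pomc and 27.2 to 33.9% in Npy libraries; ratios of Scg2 to Chga, Resp18 to Ptprn and Vgf to Cadps2 were added after the values were seen.

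The start regions of Chga, Chgb, Scg2, Scg3 and Ptprn hold all or part of the cAMP response element. Through this element the CREB factor acts on the chromogranin A promoter. All matches found in the members are shown, whatever the level of the gene. Sequences are from RefSeq on GRCm38.p6 and cover 30 bases of the 250 before and 50 after a gene's start, 5′ to 3′ on the gene's strand. Of the 10 genes, 9 had an entry, and Vgf had none. Cadps, Cadps2, Resp18 and Ptprn2 were searched as well and had no match. Capitals mark the match, searched on both strands.
Chgb, chr2:132781559-132781588, plus strand: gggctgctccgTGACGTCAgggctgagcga
Scg2, chr1:79440076-79440105, minus strand: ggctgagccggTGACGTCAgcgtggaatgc
Chga, chr12:102554886-102554915, plus strand: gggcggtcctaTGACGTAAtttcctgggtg
Scg3, chr9:75684069-75684098, minus strand: gcgctgggtcgcTGACGccatcctcacgcc
Ptprn, chr1:75264308-75264337, minus strand: cttacgccagtaTGACGcaaataggcataa
Ptprn, chr1:75264271-75264300, minus strand: gggtggagatgtCGTCAttgcacgcctgca

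The full palindrome TGACGTCA was found in 2 of the 9 genes, Chgb and Scg2, starting 72 and 68 bases before the RefSeq start, and in 588 of 32851 promoters (1.79%). Chga carries the variant TGACGTAA at 44 bases before its start, a string searched only after the sequences were seen and present in 164 promoters (0.499%). The shorter core TGACG, which lies inside both longer strings, was in 5 of the 9 genes and in 20.8% of all promoters. The 2 genes with the full palindrome, Chgb and Scg2, had log2 fold changes of 0.42 and -0.70, neither past the threshold. A link between these letters and the levels was not tested. These matches describe letters only. For Chgb, Scg2 and Ptprn the windows shown lie within the span that GENCODE gives for the gene, so they are upstream of the RefSeq start but not of the GENCODE start.

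Both CAPS genes were higher in every Pomc library than in either Npy library. Cadps (chromosome 14, 12372563 to 12823079, minus strand) encodes the main calcium-dependent activator protein for secretion of the brain, which primes dense core vesicles. It stood at 145, 168, 139.6 and 162 TPM in Pomc replicates 1 to 4, against 138.3 and 82.1 TPM in Npy replicates 1 and 2. The groups were separated by a narrow gap, between Pomc replicate 3 and Npy replicate 1. The log2 fold change was 0.52 ± 0.23 (interval -0.0047 to 1.04, unadjusted limma p = 0.0517, adjusted p = 0.680, exact permutation p = 0.0667, the smallest possible). It was 0.89 without Npy replicate 1, 0.15 without Npy replicate 2 and 0.27 with the pan-neuronal scaling. Cadps2 (chromosome 6, 23262773 to 23839421, minus strand), the paralog linked in mice to the release of neurotrophin from dense core vesicles, was much lower. It reached 16.8, 15.3, 14.3 and 25.8 TPM in Pomc neurons and 9.23 and 5.06 TPM in Npy neurons. Every Pomc value exceeded both Npy values, the log2 fold change was 1.24 ± 0.49 (2.36-fold, interval 0.13 to 2.35), and the adjusted p was 0.610 with an exact permutation p of 0.0667. The Cadps2 difference was 0.86 without Npy replicate 2 and 1.61 without Npy replicate 1. The Cadps2 span also contains the protein-coding genes Rnf133 and Rnf148. The sources used here do not say how reads in such overlaps were counted.

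The balance of the paralogs was also compared within each library, a comparison chosen with earlier results of these data known. Cadps stood at 8.64, 11.0, 9.79 and 6.28 times the level of Cadps2 in Pomc neurons, against 14.98 and 16.2 times in Npy neurons. All 4 Pomc ratios were lower than both Npy ratios. The difference in the mean log2 ratio was -0.72, with a two-sided exact permutation p of 0.0667, or 0.2 after Benjamini-Hochberg adjustment over 3 ratios. With a pseudocount of 5 the difference was -0.42. The other ratios overlapped between the groups. Ptprn2 over Ptprn differed by -0.33 (-0.17 without Pomc replicate 4, exact permutation p = 0.333, adjusted 0.5) and Chgb over Chga by 0.05 (exact permutation p = 0.733, adjusted 0.733) in mean log2 ratio.

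**Figure D3:**
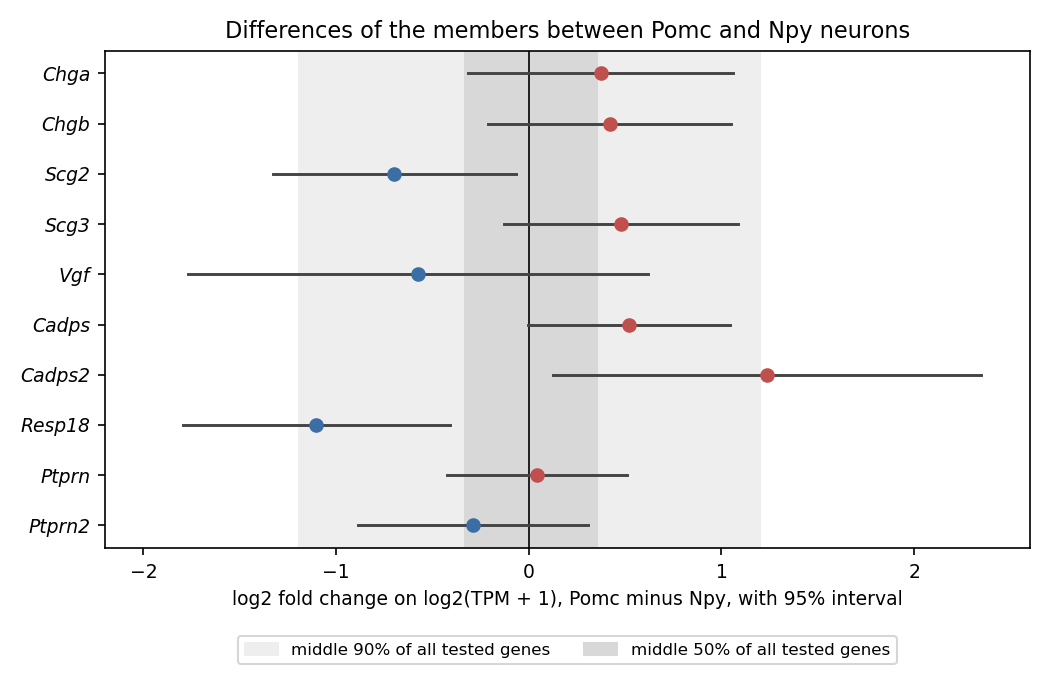
Log2 fold change (Pomc minus Npy, on log2(TPM + 1)) of each member with its 95% interval; red points are positive and blue points negative. Shading gives the middle 50% (-0.33 to 0.36) and middle 90% (-1.20 to 1.20) of all tested genes; Resp18 has the lowest and Cadps2 the highest estimate.

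Resp18 had the lowest limma p of the members. It encodes a luminal protein of dense core vesicles that resembles the luminal part of the Ptprn product, and it lies on chromosome 1, 75272199 to 75278415, minus strand. Its values were 127.5, 72.2, 62.6 and 72.6 TPM in Pomc neurons, against 142 and 214 TPM in Npy neurons. Every Pomc value was lower than both Npy values, but Pomc replicate 1 lay near Npy replicate 1 and well above the other Pomc libraries. The log2 fold change was -1.10 ± 0.31 (2.15-fold, interval -1.80 to -0.41), with an unadjusted p of 0.00563, an adjusted p of 0.332 and an exact permutation p of 0.0667. The log2 fold change of Resp18 was -0.81 without Npy replicate 2 and -1.40 without Npy replicate 1. An antisense gene, Gm28902, overlaps Resp18.

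Ptprn is the neighbour of Resp18 on the same strand, at chromosome 1, 75247027 to 75264502, with a gap of 7696 bases between the genes. Its product is a phosphatase-like membrane protein of dense core vesicles without enzyme activity and a known autoantigen of autoimmune diabetes. It had the smallest spread of the members among Pomc libraries, at 105, 91.5, 103 and 92.4 TPM in Pomc neurons and 111 and 81.2 TPM in Npy neurons. The Npy values enclosed the Pomc range. The log2 fold change was 0.04 ± 0.21 (interval -0.42 to 0.51, adjusted p = 0.976), and its sign changed with the scaling or when Npy replicate 2 was left out. Although they are neighbours, the genes differed in balance: Resp18 stood at 1.21, 0.788, 0.610 and 0.786 times Ptprn in Pomc neurons and at 1.28 and 2.63 times in Npy neurons, a ratio chosen after the values were seen and not tested. An antisense gene, Gm28294, overlaps Ptprn.

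Ptprn2 (chromosome 12, 116485720 to 117276849, plus strand), the paralog of Ptprn and likewise a vesicle membrane protein, lay close to it in level. It stood at 100.2, 121, 115 and 66.6 TPM in Pomc neurons and at 132 and 109 TPM in Npy neurons. The groups overlapped, with Pomc replicate 4 the lowest library (log2 fold change -0.29 ± 0.26, interval -0.89 to 0.31, adjusted p = 0.857). The difference was -0.10 without Pomc replicate 4, -0.15 without Npy replicate 1 and -0.54 with the pan-neuronal scaling. In Pomc neurons the Ptprn2 and Ptprn levels could not be ordered, since Ptprn2 was the higher of the pair in 2 of 4 libraries. Ptprn, Ptprn2 and Resp18 together summed to 333, 285, 280.0 and 232 TPM in Pomc neurons and to 384 and 404 TPM in Npy neurons, without overlap. Of these genes only Resp18 was separated on its own, while Ptprn and Ptprn2 each overlapped.

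The spread among Pomc libraries differed between the genes. Ptprn and Cadps varied least, with coefficients of variation of 7.15% and 8.67% over 4 libraries. Those of Chga, Scg2, Vgf and Resp18 were 34.9%, 34.1%, 33.8% and 35.3%. The highest library was replicate 4 for Chga, Chgb, Scg3 and Cadps2 and replicate 1 for Scg2, Resp18 and Ptprn. In the full order of Pomc levels, Cadps followed the 4 abundant granins by mean level, overlapping Scg2, and exceeded Ptprn2 without overlap, and Resp18, Cadps2 and Vgf were separated from each other as the lowest 3 genes. In Npy neurons Resp18 came directly after Chga, above Ptprn2 without overlap, and Cadps2 was the lowest gene, below Vgf. Vgf thus stood at 0.203 to 0.825 times Cadps2 in Pomc neurons and at 1.68 and 2.65 times in Npy neurons, a further comparison chosen after the values were seen.

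Other genes of the dense core vesicle pathway were examined in lists chosen with earlier results known. The granin-like genes Pcsk1n, an inhibitor of prohormone convertase, and Scg5, a chaperone of the Pcsk2 enzyme, were abundant and did not pass. Pcsk1n stood at 401 ± 70.7 TPM in Pomc neurons (SD, n = 4) and at 327 and 341 TPM in Npy neurons, and Scg5 at 195 ± 23.6 TPM in Pomc neurons and at 212 and 219 TPM in Npy neurons. Of 13 peptide processing enzymes, 0 passed (9 with a positive and 4 with a negative difference, median log2 fold change 0.13). Cpe, the carboxypeptidase that trims peptides after cleavage, had 547 ± 107 TPM in Pomc libraries and 476 and 494 TPM in Npy libraries. Pam, which amidates peptide ends, had 96.7 ± 20.4 TPM in Pomc libraries and 108 and 63.2 TPM in Npy libraries. The low genes Pcsk6 and Qpct, named for their size of difference, had log2 fold changes of -0.99 and -0.70 (adjusted p = 0.819 and 0.911).

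Outside the 10 members, 111 further genes of the vesicle lists were tested and 2 passed (1.80%), both higher in Pomc neurons. Among all 13845 genes tested, 57 passed (0.412%), with 40 higher in Pomc (0.289%). The 2 vesicle genes were 1 of 31 genes of vesicle biogenesis and 1 of 28 genes of vesicle fusion, lists with medians of 0.02 and -0.0001. The biogenesis gene is Syt4, a synaptotagmin found on dense core vesicles. It stood at 342, 158, 216 and 283 TPM in Pomc neurons, against 65.9 and 42.8 TPM in Npy neurons. Every Pomc value exceeded both Npy values. The log2 fold change was 2.15 ± 0.31 (4.45-fold, interval 1.44 to 2.86, limma adjusted p = 0.0243). The call was lost without Pomc replicate 1, 3 or 4 or Npy replicate 2 (adjusted p = 0.0568, 0.0681, 0.0645 and 0.333), with no filter on low values (0.0940) and with 1 prior variance for all genes (0.158).

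The fusion gene is Doc2b, a calcium sensor of regulated secretion. It had 90.7, 61.7, 54.5 and 72.2 TPM in Pomc neurons and 20.7 and 10.6 TPM in Npy neurons, again without overlap. Its log2 fold change was 2.13 ± 0.34 (4.39-fold, interval 1.36 to 2.91, adjusted p = 0.0377). This call held only without Npy replicate 1 (adjusted p = 0.0284) among the 6 fits that left out a library; the other 5 gave 0.0920 to 0.336. It was also lost with no filter (0.0965), 1 prior variance (0.129) and a pseudocount of 0.1 (0.0518). The direction of Syt4 and Doc2b was the same with every scaling tried.

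None of the other synaptotagmin genes and C2 domain genes of fusion that were tested passed the threshold, and their differences had both signs. Syt1, the main synaptic vesicle sensor, stood at 205 to 275 TPM in Pomc libraries and at 328 and 259 TPM in Npy libraries (log2 fold change -0.30, adjusted p = 0.803). Syt11 and Syt7 overlapped between the groups too (log2 fold changes 0.12 and 0.44, adjusted p = 0.910 and 0.808). Baiap3, which in mice and cultured endocrine cells acts in dense core vesicle recycling, had 87.1, 107, 127 and 107 TPM in Pomc neurons and 193 and 213 TPM in Npy neurons. Its values did not overlap, but the difference missed the threshold (log2 fold change -0.93 ± 0.20, adjusted p = 0.151). Syt5 had 82.3 to 154 TPM in Pomc libraries and 164 and 163 TPM in Npy libraries (adjusted p = 0.636). These genes were chosen for their shared domain after values were seen.

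**Figure D4:**
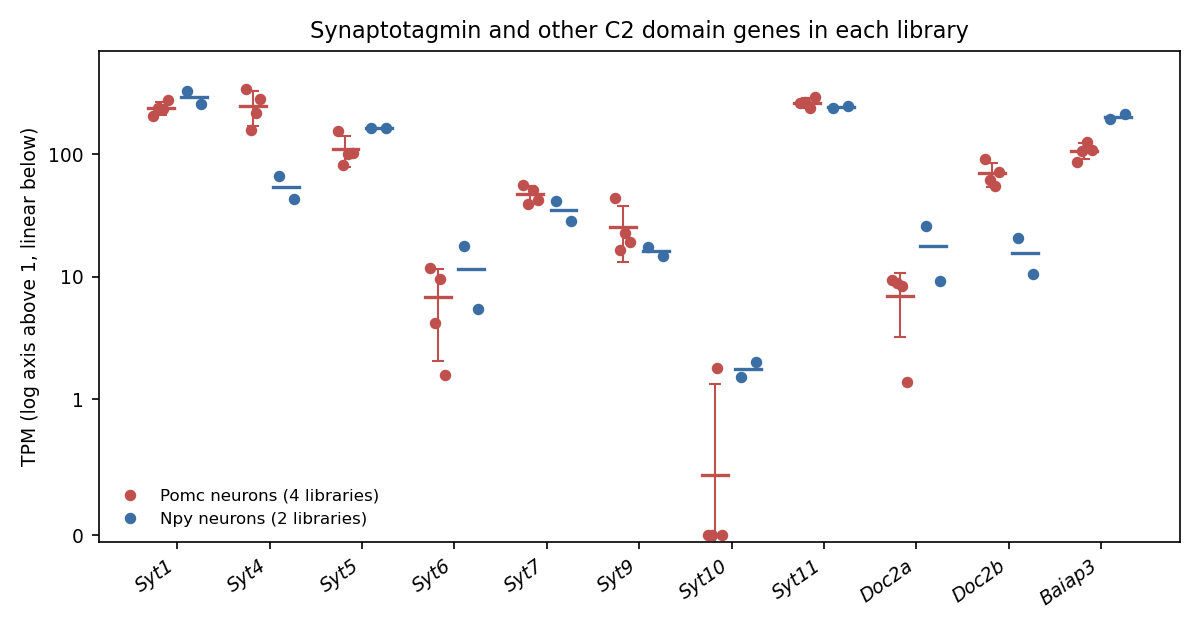
TPM of synaptotagmin genes and the C2 domain genes Doc2a, Doc2b and Baiap3 in each library, on an axis that is logarithmic above 1 and linear below, with Pomc (red) left of Npy (blue); lines are means and bars the SD of the 4 Pomc libraries (cut at 0 for Syt10). Syt4 (158 to 342 TPM in Pomc, 42.8 and 65.9 TPM in Npy) and Doc2b are separated upwards in Pomc, and Baiap3 and Syt5 are separated downwards.

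In the remaining pathway lists no gene passed, with the exception of peptide cargo. The motors and Rab effectors of vesicle transport gave 0 of 25 (median log2 fold change 0.14), with Kif5c at 773 ± 50.8 TPM in Pomc libraries and 856 and 685 TPM in Npy libraries. Dync1h1, the dynein heavy chain, differed by 0.41 on the log2 scale (adjusted p = 0.616). Rab3b, a small GTPase of secretory vesicles, and Myrip, a linker of vesicles to actin motors, were higher in each Pomc library than in both Npy libraries, with log2 fold changes of 1.16 and 1.47 (adjusted p = 0.612 for each). The vesicle membrane list gave 0 of 12. In it Tmem163, a zinc transporter of vesicles, stood at 28.4, 45.9, 27.5 and 54.9 TPM in Pomc libraries and 5.26 and 8.497 TPM in Npy libraries, with a log2 fold change of 2.32 ± 0.43 and an adjusted p of 0.0844. The other named genes of that list were the proton pump subunits Atp6v1b2 and Atp6v0a1 and the vesicle protein Sv2b, with log2 fold changes of 0.07, 0.20 and 2.20 (adjusted p = 0.959, 0.848 and 0.418). Factors known to act on granin or secretory genes gave 0 of 16. Among them Isl1 stood at 432 ± 45.4 TPM in Pomc libraries and 637 and 601 TPM in Npy libraries (adjusted p = 0.461). Myt1, Neurod1 and Atf1 had log2 fold changes of 0.11, 2.32 and 0.92 (adjusted p = 0.933, 0.564 and 0.712). Rest, added for its known role, is the repressor of neuronal and granin genes outside neurons and was low throughout (0.566 to 6.10 TPM in Pomc, 7.73 and 2.54 TPM in Npy). Of 19 peptide precursors tested, Pomc and Adcyap1 were higher in Pomc neurons (Adcyap1 at 15.9 to 56.1 TPM and listed at 0 in both Npy libraries), Sst and Ghrh were lower, and 15 did not pass. Npy and Agrp, added as markers of Npy neurons, were among the 15. Npy had a log2 fold change of -4.00 (limma adjusted p = 0.418). Agrp was low and overlapped, at 0 to 6.82 TPM in Pomc and 5.53 and 1.75 TPM in Npy libraries. Sst stood at 433 to 653 TPM in Pomc libraries and at 2108 and 3187 TPM in Npy libraries.

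**Figure D5:**
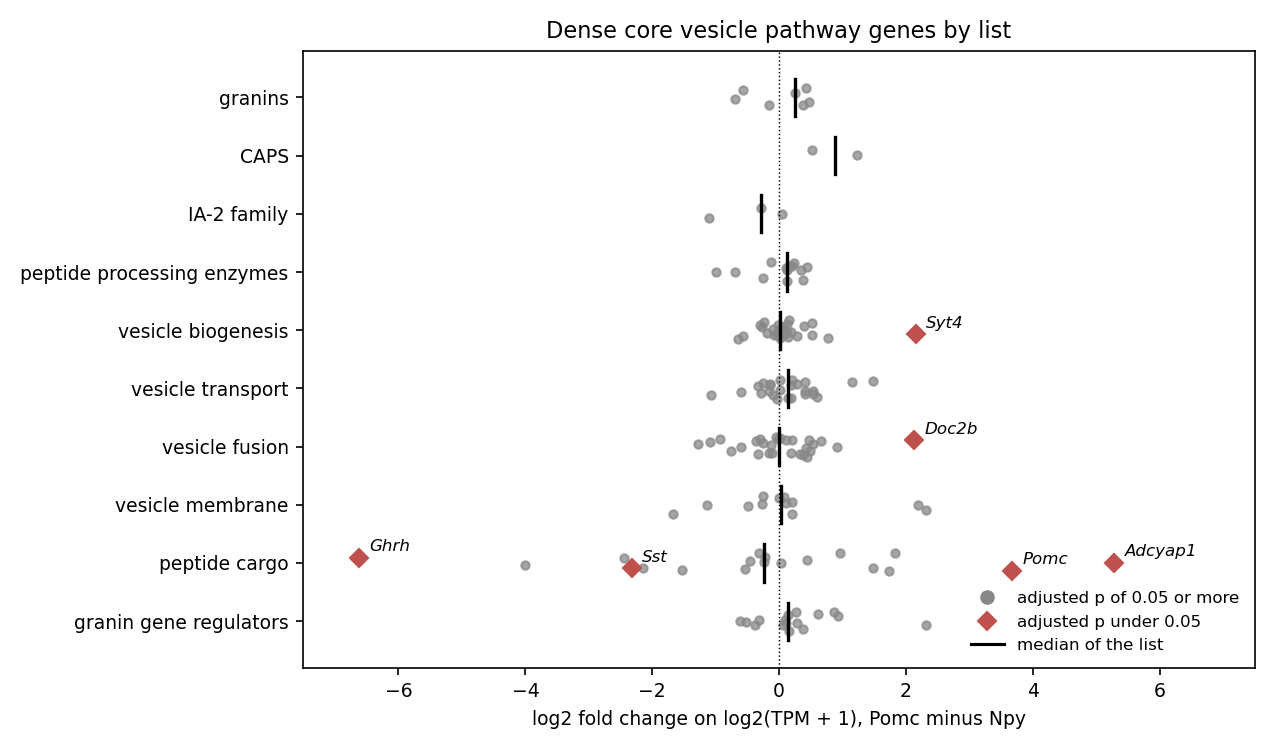
Log2 fold changes (Pomc minus Npy, on log2(TPM + 1)) of the tested genes in each list, with a black line at the list's median; red diamonds passed the adjusted p of 0.05. In the 10 lists drawn, Syt4, Doc2b and 4 peptide precursors passed. The positions of Adcyap1, listed at 0 in Npy neurons, and of Ghrh, at 0 to 0.296 TPM in Pomc libraries, depend on the pseudocount.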

How the data were processed

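Libraries were made from sorted Pomc and Npy neurons, per the labels' protocols. The authors deposited 1 table of 18335 rows with 7 columns and no stated unit. The deposited values were taken as TPM, made by the authors in steps that header and labels do not record, because each column used sums to about 1000000. Such a sum does not show that the values were divided by gene length. The submitters' processing notes name HISAT2, mm10 and edgeR 3.8, with no role. No source used here names the counting tool or its use of strand, so overlapping genes are uncertain. The 4 rows with repeated date-like symbols were left out.

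Npy replicate 3 was set aside because 15223 of 15223 genes with a value equal a whole percent (95 to 105) of the mean of Npy replicates 1 and 2, within 0.0001 percentage points.

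Genes with at least 1 TPM in 2 libraries were fitted with limma 3.58.1 (trend) in R 4.3.3 on log2(TPM + 1), which understates changes of low genes. The script was checked on simulated data. Ratios and single genes were compared by two-sided exact permutation tests. Coordinates are from GENCODE on GRCm38. The text names all members, genes of a list past the threshold, or otherwise its 2 most abundant and 2 most different genes; exceptions are stated, and lists of other cells are given as sums. Members and 16 lists were chosen with earlier results of these data known. Alternatives varied the pseudocount, filter, prior variance, scaling, columns, replicate block and libraries. Replicate numbers 1 and 2 occur in both groups, and deviations of same-numbered libraries correlated at -0.04 and -0.03. With only 2 Npy libraries their deviations are equal in size and opposite in sign, so these correlations cannot decide whether the numbers pair libraries. The numbers were not taken as pairs because the labels name no animals or litters behind a library. The replicate block is given as an alternative.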

Additional observations from a re-analysis of the deposited data

Results flagged for a closer look

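Of 22 sets of 4 Pomc values examined with Dixon's criterion, 2 held a library far from the others, and chance gives about 1 in 20. For Resp18, Pomc replicate 1 had 127.5 TPM, and the other Pomc libraries had 62.6 to 72.6 TPM. The log2 ratio of Vgf to Cadps2 was -2.10 in Pomc replicate 4, against -0.53 to -0.26 in the other Pomc libraries. Pomc replicate 4 had the lowest Vgf and the highest Cadps2 value of the Pomc group.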

How the results depend on the processing

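Under the 17 alternatives, 0 of 170 member values passed the threshold, and the lowest adjusted p was 0.0731, for Resp18 with all 7 columns. The sign reversed in 4 values, all of Ptprn: -0.0190 with quantile normalization, -0.0135 without short RNA genes, -0.208 with the pan-neuronal shift (a scaling chosen after seeing the data) and -0.179 without Npy replicate 2, in a range of -0.179 to 0.265 over the fits without 1 library. The median log2 fold change of the members, 0.208, was 0.137 with quantile normalization, 0.0657 with the replicate block and -0.0439 with the pan-neuronal shift, which lowered the median of all genes by 0.25. With the block, Chga, Chgb, Vgf and Ptprn2 stood at 0.08, 0.26, -0.22 and -0.12. The members' median ranged from -0.0770 (without Npy replicate 2) to 0.415 (without Npy replicate 1). The Chgb over Chga ratio ranged from -0.0199 (without Pomc replicate 1) to 0.119; the other ratios kept their direction. The causes were not tested, and a fit with 1 Npy library assumes that it varies like the Pomc libraries. Genes called overall numbered 57, and 12 with the replicate block, 205 with all 7 columns, 33 with no filter, 37 with a pseudocount of 0.1, and 22 to 69 without 1 library. Syt4 lost its call with the block, no filter and 1 prior variance (adjusted p = 0.0674, 0.0940 and 0.158), as did Doc2b (0.156, 0.0965 and 0.129) and, with a pseudocount of 0.1, Doc2b (0.0518). The fit with all 7 columns counts the computed Npy replicate 3 as a library, so its standard errors and p-values are too small. For Resp18 the standard error was 0.252 in that fit and 0.307 in the main fit. Only 2 Npy libraries and an unknown read depth limit the precision.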
